A study of Oryza sativa Indica Group with 8 samples.

Results

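The sucrose synthase family of rice consists of the 7 genes SUS1 to SUS7, and its transcripts were examined in leaves of the OsPRR37 overexpression line and of its recipient parent. The members were taken by their MSU locus identifiers and not by a rule on their values, although earlier results of these data were known. All 7 were found among the 35961 listed loci. They are SUS1 (LOC_Os03g28330), SUS2 (LOC_Os06g09450), SUS3 (LOC_Os07g42490), SUS4 (LOC_Os03g22120), SUS5 (LOC_Os04g24430), SUS6 (LOC_Os02g58480) and SUS7 (LOC_Os04g17650). By these identifiers SUS1 and SUS4 lie on chromosome 3, SUS5 and SUS7 on chromosome 4, and SUS6, SUS2 and SUS3 on chromosomes 2, 6 and 7. RefSeq lists each of the 7 names once, on the same chromosomes.

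Sucrose synthase reversibly cleaves sucrose with UDP into UDP-glucose and fructose. UDP-glucose feeds the synthesis of cellulose and other wall polysaccharides, and through ADP-glucose that of starch. In plants the enzyme is known mainly from sink tissues that import sucrose, such as growing stems, roots and filling seeds, whereas a mature leaf makes and exports sucrose. In rice, SUS1 is known from elongating tissues, SUS2 from most organs, and SUS3 and SUS4 chiefly from the developing grain.

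RNA-seq libraries came from the uppermost expanded leaves of the overexpression line (OE5, labelled OE) and of Guangluai 4 (GL, labelled WT), an indica variety. Both carry the GL background, and OE5 differs by the OsPRR37 transgene, whose promoter is not given in the sources used here. By the study, the OsPRR37 allele of GL itself is loss-of-function, so GL is not a functional wild type for this gene. OE5 is 1 transgenic line, so an effect of OsPRR37 and of that line's own history cannot be told apart. Seedlings of 15 days were kept at 28°C in days of 14 h light and 10 h dark, and leaves were harvested in the morning. Each genotype had 2 biological replicates, and whether a replicate is 1 plant or a pool is not given. The comparison of OE5 with GL asks which transcripts respond to OsPRR37, a repressor of the rice circadian clock.

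The reads counted on genes summed to 47685773 and 48284992 in the OE5 libraries and to 43423801 and 45708220 in the GL libraries. The level of OsPRR37 itself was not analysed here, and the leaf label was not checked against marker genes. Levels are given in TPM, a transcript abundance that corrects for gene length and library total and so allows levels of different genes to be compared. GL reads were mapped to the Nipponbare genome, and the handling of reads that fit several similar genes is not given in the sources used here, so the split of reads between similar members is uncertain.

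SUS2 was the main sucrose synthase transcript of the leaf in both genotypes. Its level was 54.7 and 56.5 TPM in OE5 and 53.6 and 51.5 TPM in GL. The libraries of each genotype thus stood close together, and within each of the 4 libraries SUS2 lay between the 89.3 and the 89.9 percentile of the 19280 genes tested. SUS4 was next, with 10.4 and 13.5 TPM in OE5 and 9.67 and 10.3 TPM in GL. It thus ranked second in the leaf, although it is known chiefly from the developing grain. The second OE5 library stood above the other 3 libraries, and the lower OE5 value was close to the upper GL value.

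SUS5, SUS6 and SUS7 formed a group of low and similar levels. SUS7 had 4.69 and 4.48 TPM in OE5 and 4.16 and 3.30 TPM in GL. SUS5 had 4.89 and 3.83 TPM in OE5 and 3.45 and 3.61 TPM in GL. The wide pair was in OE5 for SUS5 and in GL for SUS7. SUS6 had 4.24 and 4.16 TPM in OE5, against 4.23 and 3.03 TPM in GL, so that the first GL library lay within the OE5 range and the second below it.

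SUS1, known from elongating tissues, was expressed at a low level, with 1.28 and 1.57 TPM in OE5 and 1.22 and 0.980 TPM in GL. These levels rested on 141 and 177 reads in OE5 and 126 and 104 reads in GL, the fewest among the 6 members that were tested. SUS3, known from the grain, was at the limit of detection. It had 0 reads in both OE5 libraries, and 2 and 0 reads in the GL libraries. A count of 0 allows up to 3 reads, which corresponds to 0.0303 and 0.0299 TPM in the OE5 libraries and 0.0316 TPM in the second GL library. This limit covers counting error only and takes each count as independent, so it may be too low. A difference in SUS3 was not detectable at this depth.

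**Figure D1:**
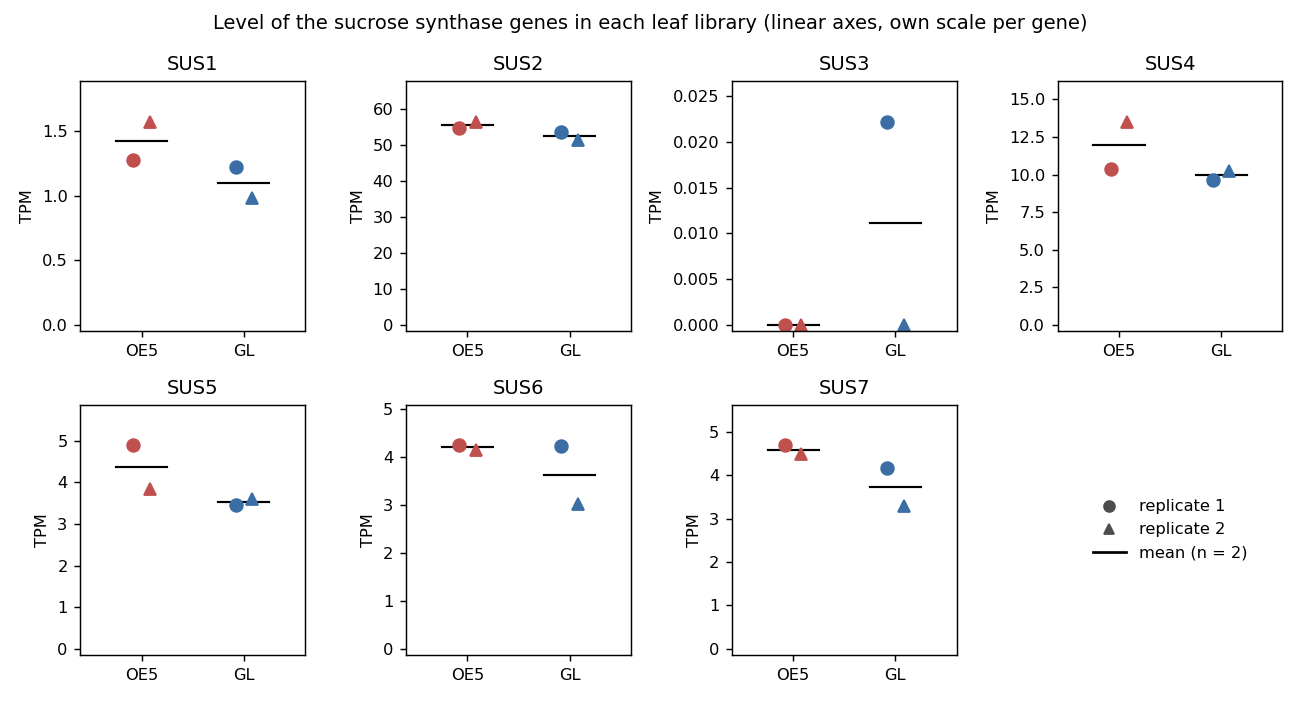
TPM of each sucrose synthase gene (vertical axes, linear, a separate scale for each gene) in OE5 and GL leaves (horizontal axes), with replicate 1 as circles, replicate 2 as triangles and the mean of each genotype as a line. SUS2 lies at 51.5 TPM or more in all 4 libraries, and SUS3 has reads in 1 GL library only.

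The order SUS2 above SUS4, above SUS5 to SUS7, above SUS1, above SUS3 was the same in all 4 libraries. Neighbours at each of these steps were separated in both genotypes, without overlap of their libraries. SUS2 exceeded SUS4 by a mean of 43.6 TPM in OE5 (pooled SD 1.81) and 42.6 TPM in GL (pooled SD 1.08). Among SUS5, SUS6 and SUS7 the order was not fixed. SUS5 ranked above SUS6 and SUS7 in the first OE5 and the second GL library and below both in the other two, and the difference between SUS7 and SUS5 of 0.22 TPM in OE5 was smaller than their pooled SD of 0.54 TPM. In GL it was 0.20 TPM, with a pooled SD of 0.44 TPM.

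SUS2 made up 68.2 and 67.2% of the summed TPM of the 7 members in OE5 and 70.2 and 70.9% in GL. Its share was therefore lower in both OE5 libraries than in either GL library, with a mean difference of -2.80 percentage points and means of 67.7 ± 0.728% in OE5 and 70.5 ± 0.479% in GL (SD, n = 2 each). Such shares do not depend on how the libraries are scaled to each other. No like share was computed over all tested genes, and separation of 2 libraries from 2 others was common. The ratio of a gene's TPM to that of SUS2 was higher in both OE5 libraries for 32.1% of all other tested genes. It was lower in both for 14.0%. In reads, without the correction for length, SUS2 took 74.3% (95% exact binomial interval 73.4 to 75.1%) and 73.1% (72.3 to 74.0%) of the members' counts in OE5. In GL it took 75.8% (74.9 to 76.7%) and 76.5% (75.6 to 77.3%). The intervals of the first OE5 and the first GL library overlapped, and all of them cover counting error only. The count share is larger than the TPM share because SUS2 had the longest counted length, the others having 0.644 to 0.859 of it.

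**Figure D2:**
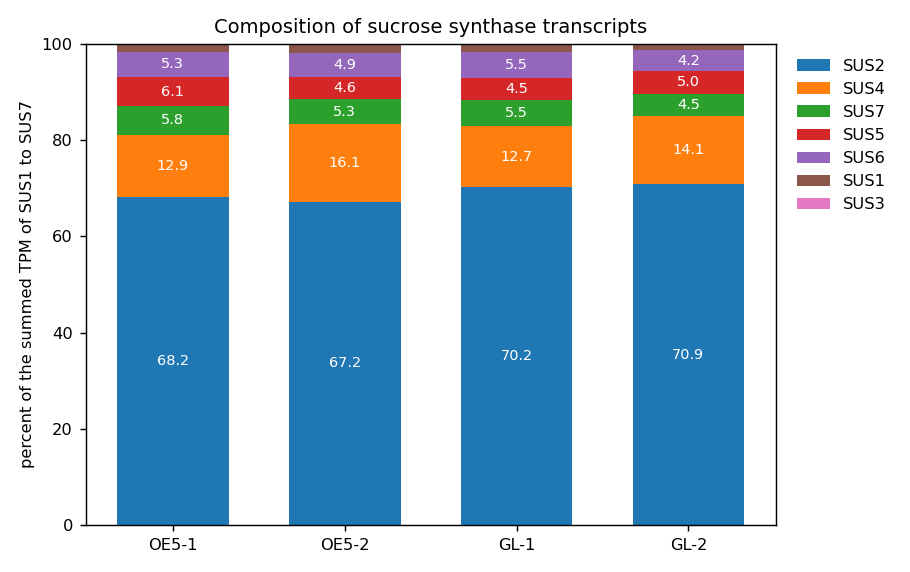
Share of each gene in the summed TPM of SUS1 to SUS7 (vertical axis, percent) in the 2 OE5 and the 2 GL libraries (horizontal axis), stacked in order of level. SUS2 fills 67.2 to 68.2% of the bars of OE5 and 70.2 to 70.9% of those of GL, and SUS3 is too small to be seen.

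The other members' shares overlapped between the genotypes. SUS4 contributed 14.5 ± 2.23% in OE5 and 13.4 ± 1.02% in GL (SD, n = 2 each). The mean shares of SUS5, SUS6 and SUS7 lay between 5.12 and 5.59% in OE5 and between 4.75 and 5.00% in GL. SUS1 took 1.73 ± 0.195% in OE5 and 1.47 ± 0.175% in GL (SD, n = 2 each).

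Set against SUS2 within each library, SUS1 stood at 2.34 and 2.78% of the SUS2 level in OE5 and at 2.28 and 1.90% in GL. SUS7 stood at 8.57 and 7.93% of SUS2 in OE5 and at 7.77 and 6.40% in GL. For both genes the OE5 libraries lay above the GL libraries, whereas the ratios of SUS4, SUS5 and SUS6 to SUS2 overlapped. These 2 of 5 members stand beside 32.1% of all other tested genes whose ratio to SUS2 was higher in both OE5 libraries.

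None of the 6 members that passed the filter on low expression was called different between OE5 and GL by edgeR's quasi-likelihood test. A gene was called where its Benjamini-Hochberg adjusted p-value, over all 19280 tested genes, was below 0.05 and its fold change above 1.5, and 3.39% of the tested genes met this rule, 2.11% as higher and 1.28% as lower in OE5. None of the 6 had an unadjusted p below 0.05 either, a limit that 15.2% of the tested genes passed, and DESeq2 called none of them and 4.00% of the tested genes. SUS3 did not pass the filter. In bulk leaves, a change in RNA per cell and in the share of a cell type cannot be told apart, and with 2 libraries per genotype the errors are wide.

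SUS2 had 7142 ± 108 normalized counts in OE5 and 7548 ± 79.8 in GL (SD, n = 2 each), normalized counts being counts scaled by TMM, which sets the libraries to a common level over most genes. On the log2 scale the difference was -0.08 ± 0.11 (standard error, edgeR adjusted p = 0.833), with a 95% interval for the fold change of 0.796 to 1.12. SUS4 had 1194 ± 214 normalized counts in OE5 and 1116 ± 89.2 in GL (SD, n = 2 each). The log2 difference was 0.10 ± 0.14 (standard error, edgeR adjusted p = 0.84), and the fold interval was 0.859 to 1.33. It became -0.10 without the second OE5 library, so that library set its sign.

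SUS1 showed the largest estimate of this fit, a log2 difference of 0.21 ± 0.22 (standard error, edgeR adjusted p = 0.756), with 146 ± 20.2 normalized counts in OE5 and 126 ± 14.5 in GL (SD, n = 2 each). Its fold interval of 0.82 to 1.64 was the only one to reach past 1.5-fold. Its log2 difference was 0.07 without the second OE5 library and 0.34 without the first, and SUS1 was not the largest without the second OE5 library (SUS5, 0.31), without the second GL library (0.11, against 0.22 for SUS5) or with limma-trend on log2(TPM + 1), where it had 0.21 and SUS7 0.25. For SUS5 and SUS7 the log2 differences were both 0.14 (standard errors 0.17 and 0.16, edgeR adjusted p = 0.803 and 0.784), and for SUS6 it was 0.06 ± 0.17 (standard error, edgeR adjusted p = 0.93). Without the second GL library, SUS7 had 0.02, and without the first 0.28. The fold intervals of SUS5, SUS7 and SUS6 ran from 0.841 to 1.45, from 0.859 to 1.41 and from 0.802 to 1.35. The 95% intervals of 5 of the 6 members thus stayed within 1.5-fold in both directions, each taken singly. The percentage of all tested genes with such intervals was not computed, so this count is not a trait particular to the members.

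**Figure D3:**
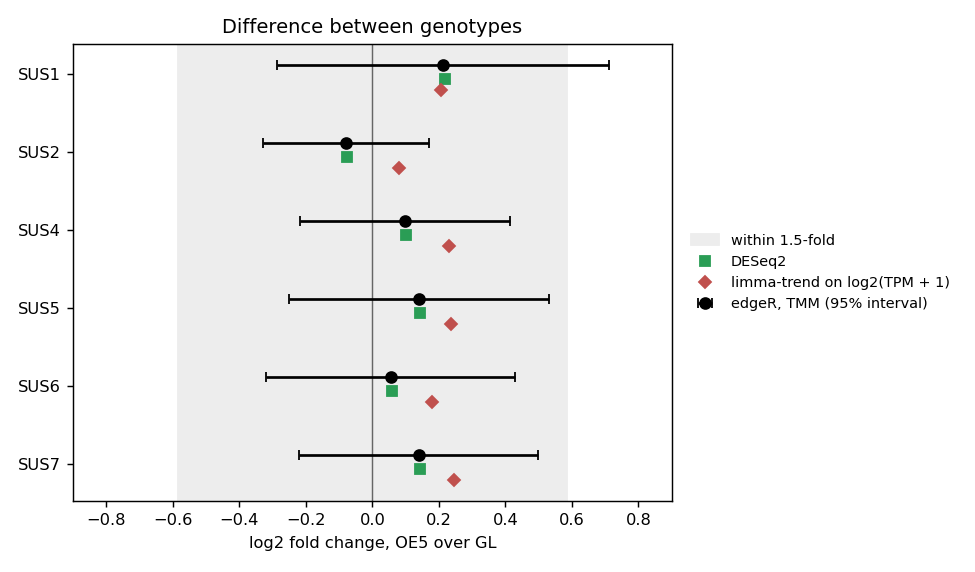
Log2 fold change of OE5 over GL (horizontal axis) for the 6 tested members (vertical axis), from edgeR on TMM-normalized counts with its 95% interval (black), from DESeq2 (green squares) and from limma-trend on log2(TPM + 1) (red diamonds). All edgeR intervals include 0, and the one of SUS1 alone leaves the grey band of 1.5-fold. The TPM-based values lie to the right of the TMM-based ones for every member but SUS1. The value of SUS1 depends on the pseudocount, and with 0.1 in place of 1 it was 0.35, to the right as well.

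The sign of the SUS2 difference, and whether the libraries of the genotypes overlapped for SUS1, SUS4, SUS5 and SUS7, depended on how the libraries were scaled. In TPM, the mean of each of the 6 members was higher in OE5, as it was for 76.4% of all tested genes. Both OE5 libraries lay above both GL libraries for 5 of the 6 members, beside 45.0% of all tested genes, and SUS6 was the exception. None of the 6 lay below GL in both OE5 libraries, beside 8.63% of the tested genes. After TMM normalization, none of the 6 lay above GL in this way, beside 22.2% of the tested genes. SUS2 lay below GL in both OE5 libraries, as did 22.5% of the tested genes, and the remaining 5 members overlapped. The TMM-based log2 fold change was above 0 for these 5 of the 6 members and for 48.9% of all tested genes. The median log2 fold change over all tested genes was -0.01 with TMM and 0.14 with limma-trend on log2(TPM + 1), and over the 6 members it was 0.12 and 0.22.

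The summed level of the family followed the same scaling. It was 80.1 and 84.0 TPM in OE5 and 76.3 and 72.7 TPM in GL, a log2 ratio of 0.14. On the TMM library scale with the same length correction, the log2 ratio was -0.02. Without SUS2, the other members summed to 25.5 and 27.6 TPM in OE5 and 22.8 and 21.2 TPM in GL. All 7 members together held 0.0214 and 0.0226% of the counted reads in OE5 and 0.0211 and 0.0196% in GL.

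**Figure D4:**
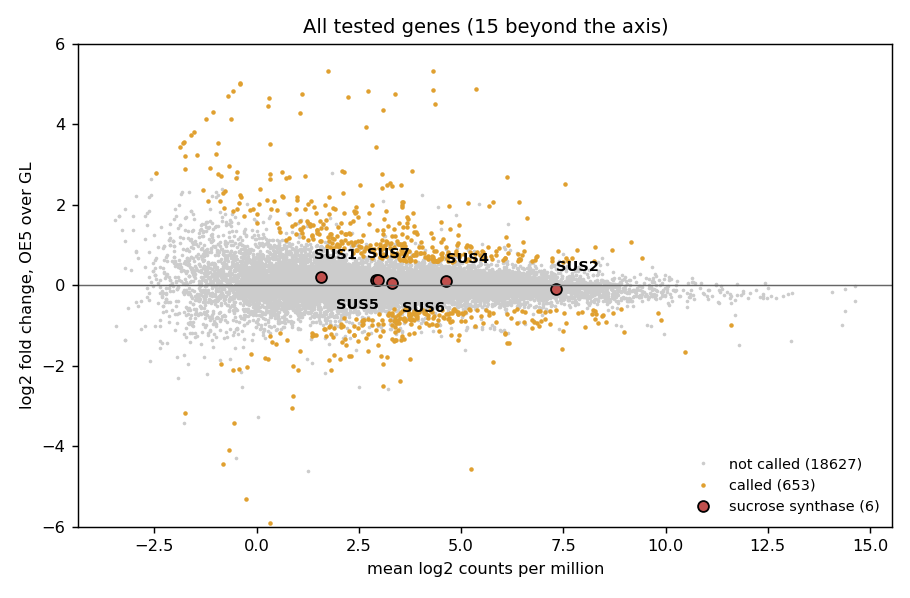
Log2 fold change of OE5 over GL (vertical axis) against mean expression as log2 CPM, counts scaled to library size (horizontal axis, edgeR), for the 19280 tested genes, with called genes in orange and the 6 tested sucrose synthase genes in red. The members lie near 0 over a wide range of expression, and 15 genes lie beyond the vertical axis.

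The spread of the replicates was set beside counting error, to see how much of it the read numbers allow. For each member except SUS3, the ratio of the 2 libraries of a genotype was taken after TMM scaling, with an exact binomial 95% interval. The interval excluded 1 for 2 of the 6 members in OE5, beside 41.1% of all tested genes with at least 20 reads, and for 3 of the 6 in GL, beside 49.4%. SUS4 and SUS5 differed between the OE5 libraries by 1.29-fold each (intervals 1.19 to 1.40 and 1.12 to 1.49). SUS6 differed by 1.32-fold between the GL libraries (1.15 to 1.52), and its log2 fold change became -0.12 without the second GL library. For SUS2, the deepest member, neither interval excluded 1, and its replicates agreed within 1.02-fold in OE5. The total counts exceed the read pairs that the study lists, so some read pairs were counted more than once. In every library they also exceed 2 counts for each pair listed as mapped, more than separate mates alone would give. Whether the surplus lies at several genes was not tested. Such intervals take each count as independent, so they are likely too narrow, and fewer of them may exclude 1.

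The median absolute log2 fold change of the 6 members was 0.12, and that of all tested genes was 0.15. SUS1 had the smallest p-value of the 6, although 48.1% of all tested genes had a smaller one. The genes with the most similar profile to SUS1, by Euclidean distance of centred log2 normalized values over the 4 libraries, were LOC_Os04g56610 at 0.0271 and LOC_Os02g24354 at 0.0297. Their log2 fold changes were 0.19 each, and 105 of 19274 genes lay within a distance of 0.1, so these genes are not alone in this profile.

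Of the enzymes that use the hexoses released from sucrose, the hexokinase OsHXK1 (LOC_Os07g26540) is the one the study names by locus. It had 474 and 488 reads in OE5 and 0 reads in both GL libraries. Against a floor of 3 reads per library, which takes each count as independent, the OE5 level was 135-fold higher. The study singled this gene out for its change in these same libraries, so its values are given as a description only.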

How the data were processed

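RNA-seq of 2 OE5 and 2 GL leaf libraries was used, and the bisulfite samples were not used here. The authors trimmed reads with fastp (version 0.20.1), mapped them to the Nipponbare genome (MSU_v7.0) with Hisat2 (version 2.1.0), and ran TPMCalculator. The deposited table of raw counts holds whole reads for each MSU locus, not normalized. In the second table, of TPM values, the authors corrected for gene length and library total.

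Genes were kept where the summed TPM of a genotype reached 2 in OE5 or in GL. Counts were tested with edgeR 4.0.16 in R 4.3.3 (TMM normalization, glmQLFit with robust estimation, prior count 2), across all kept genes. Standard errors were derived from each log2 fold change and its F statistic, and intervals from the t distribution with the test's degrees of freedom. DESeq2 1.42.0, limma 3.58.1 (limma-trend, pseudocounts 1 and 0.1), other normalizations, other filters, each library left out in turn and a replicate block were alternatives. The tests were also run on simulated data with differences larger than those of the members here, so that run says nothing on small differences.

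The members and lists were chosen with earlier results of these data known. All members were named whatever their values. The sources pair no locus with other sucrose enzymes except OsHXK1, so those were not analysed here. RefSeq (assembly ASM3414082v1) gave names only, since 0 of the listed identifiers are in its table, and no sequences were used. The counts of replicates differed beyond sampling noise (51.5 for OE5 and 173 for GL as chi-square per degree of freedom), so neither pair is a library deposited again, which says nothing on whether they are separate plants. That they are biological replicates is taken from the study's methods, and p-values measure the spread between these libraries only.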

Additional observations from a re-analysis of the deposited data

How the results depend on the processing

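None of the 6 tested members was called under any alternative tried, and their lowest adjusted p was 0.401. Of 78 recomputed log2 fold changes, 73 kept their sign, and they ranged from -0.12 to 0.35. SUS2 turned positive with limma-trend on TPM, at 0.08 with either pseudocount (0.0801 and 0.0814). With each library left out, SUS1 ranged from 0.07 to 0.34, SUS7 from 0.02 to 0.28, SUS4 from -0.10 to 0.27, SUS5 from -0.052 to 0.312 and SUS6 from -0.12 to 0.28. In such fits the lone library is assumed to vary like those of the other genotype. The summed family level moved to a log2 ratio of -0.021 on the TMM library scale.

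Over all tested genes, 407 were called higher and 246 lower. Without a filter these were 776 and 431, and with a fold change over 2 they were 249 and 95. With limma-trend, 481 were higher and 98 lower at a pseudocount of 1, and 447 and 93 at 0.1. With each library left out, from 142 to 761 were higher and from 52 to 509 lower. With the replicate block, 439 were higher and 269 lower, and no member was called. The replicate numbers are not stated to mark a shared batch, and libraries with the same number deviated from their genotype means with Pearson's r at 0.126 but Spearman's rho at -0.124 over the tested genes, which are no replicates, so the sign depends on the statistic. SUS3 is limited by depth, and 2 libraries per genotype limit every test.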
